A study of Saccharomyces cerevisiae with 15 samples.

Results

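The 32 genes described here encode the nuclear pore complex of budding yeast (Saccharomyces cerevisiae), including the filaments of its nuclear basket. They were chosen by gene symbol from a list of nucleoporins and basket proteins, by a rule that uses no measured value, although the list was drawn up with earlier results of these data known. Each had 1 probe set on the array, and together they were 32 of the 5449 genes to which a probe set could be assigned. They lay on 12 chromosomes, and none lay on chromosome XVI.

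The nuclear pore is a ring-shaped channel through the nuclear envelope. Outer and inner rings of scaffold proteins are anchored by a ring of membrane proteins. FG nucleoporins, rich in phenylalanine-glycine repeats, fill the channel and bind transport receptors, and filaments extend into the cytoplasm and, as the basket, into the nucleus. TREX-2 (also called THSC), whose subunits include Sac3, Thp1 and Sus1, docks at the nuclear side of the pore through the basket nucleoporin Nup1 and couples transcription to mRNA export. The comparisons ask whether cells without a TREX-2 subunit had altered mRNA levels of the structure on which the complex docks.

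Cultures of 5 strains in rich YPD medium gave total RNA from the middle of the log phase, which was labelled with biotin and measured on 15 Affymetrix arrays, 3 for each strain. All strains carried his3∆1, leu2∆0 and ura3∆0. The wild type BY4741 and sac3Δ (Y03517, sac3::KanMX) also carried met15∆0, and the wild type BY4742, thp1Δ (Y11764, thp1::KanMX) and sus1Δ (Y17455, sus1::KanMX) carried lys2∆0. The wild type set against sac3Δ was BY4741, and both thp1Δ and sus1Δ were set against the same BY4742 arrays, as in the study. Each deletion was studied in 1 strain. Replicates are labelled as biological, but separate cultures are not stated, so the p-values cover only a spread between arrays that may be technical.

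Several facts of the whole series touch the values below. The deleted gene averaged 15.9 units in sac3Δ, 16.1 in thp1Δ and 21.1 in sus1Δ, and at least 854 units in the matching wild type. The labels gave mating type MATa for every strain, whereas all 5 a-specific markers were lower in BY4742, thp1Δ and sus1Δ (strain means 136 to 2597 units) than in BY4741 and sac3Δ (3757 to 16080 units), and both α-specific markers with values in all strains ran the other way. The library BY4741 replicate 3 had 862 empty values, 14.6% of its probe sets, against 0 to 22 in the other arrays. For SRB4, the 3′ control probe set was brighter than the 5′ one, a sign of RNA integrity and labelling, and their mean ratio was 10.4 in sac3Δ and 12.5 in thp1Δ (19.3 in its replicate 3) but 6.51 in BY4741, 4.40 in BY4742 and 4.92 in sus1Δ. The same ratio for ACT1 differed far less, at 1.398 in sac3Δ and 1.395 in thp1Δ against 1.292 in BY4741, 1.202 in BY4742 and 1.201 in sus1Δ. Leaving out BY4741 replicate 3 or thp1Δ replicate 3 changed no call at 1.5-fold among the pore genes. The part of RNA quality in the changes of sac3Δ and thp1Δ was not tested. Genes of chromosome XVI were high in thp1Δ and sac3Δ, with a median log2 fold change of 0.86 in thp1Δ and 0.51 in sac3Δ, against 0.02 and 0.03 over the other chromosomes.

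Most pore genes stayed close to wild type in all mutants. Changes were called where limma gave an adjusted p under 0.05, the fold was at least 1.5 and the means differed by over 100 units. In sac3Δ, 1 of 32 pore genes fell (3.25% of all 4308 genes tested were called lower) and 0 rose (8.84%). In thp1Δ, 2 of 31 rose (14.9% of 4231 genes) and 1 fell (6.17%). In sus1Δ, 0 of 31 rose (3.46% of 4304 genes) and 0 fell (1.39%). At an unadjusted p under 0.05, the methods' t-test with the same fold and difference called the same numbers. The genes called were POM152, which fell in sac3Δ and thp1Δ, and ASM4 and NUP159, which rose in thp1Δ. NUP42 was below the minimum of 600 units in at least 50% of the arrays of thp1Δ and sus1Δ with their wild type, so it was tested only in sac3Δ. In such bulk RNA, fewer expressing cells and less RNA per cell cannot be told apart.

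The spread of changes within the family was smaller than over all genes. The SD of the log2 fold changes was 0.25 over the pore genes and 0.39 over all genes tested in sac3Δ, 0.33 and 0.50 in thp1Δ, and 0.17 and 0.30 in sus1Δ. In thp1Δ, 28 of 31 pore genes (90.3%) lay within 1.5-fold of wild type, against 78.8% of all genes. In sac3Δ the numbers were 31 of 32 (96.9%) against 87.7%, and in sus1Δ 31 of 31 against 95%. No pore gene lay on chromosome XVI, and over the genes of the other chromosomes the SD was 0.36 in sac3Δ, 0.44 in thp1Δ and 0.30 in sus1Δ, with 90.1%, 83.2% and 94.9% of genes within 1.5-fold. There, 6.20% were called higher and 3.48% lower in sac3Δ, 10.02% and 6.65% in thp1Δ, and 3.62% and 1.33% in sus1Δ. Between the wild types, BY4742 against BY4741, the SD was also smaller over the pore genes, at 0.12 against 0.21 over all genes. There 100% and 98.5% lay within 1.5-fold, so the narrower spread was not particular to the mutants. These shares describe the family and were not tested against other lists. The median SD between arrays of a strain was 0.113 over pore genes against 0.155 over all genes in BY4741, and 0.0934 against 0.114 in sac3Δ. It was 0.0808 against 0.0858 in thp1Δ, 0.0512 against 0.0534 in BY4742 and 0.0535 against 0.0524 in sus1Δ. The part of this spread between arrays in the narrower spread of changes was not tested. The median log2 fold change of the family was 0.08 in sac3Δ, -0.08 in thp1Δ and 0.02 in sus1Δ, against 0.06, 0.06 and 0.03 over all genes. With array medians set equal these medians became -0.03, -0.20 and -0.05, while the median of all genes moved by -0.12, -0.12 and -0.08, so no direction is given for the family as a whole.

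**Figure D1:**
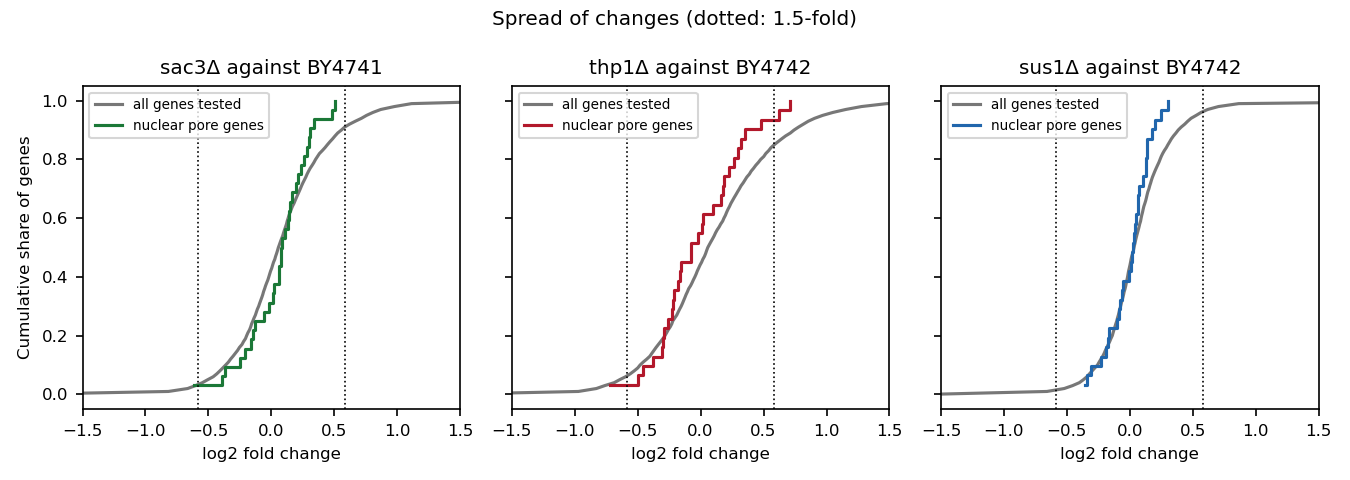
Cumulative share (vertical axis) of genes against log2 fold change (horizontal axis) in each mutant, for the pore genes and for all genes tested. The pore genes form the steeper curve in every panel, with an SD of 0.33 against 0.50 in thp1Δ.

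With the adjusted p alone and no fold minimum, smaller shifts appeared. In sac3Δ, 9 pore genes were higher (27.9% of all genes) and 5 lower (16.8%). In thp1Δ, 9 were higher (36.4%) and 12 lower (25.3%), and in sus1Δ 3 were higher (18.1%) and 4 lower (11.3%). This split depended on scaling: with array medians set equal it was 2 higher and 9 lower in sac3Δ, 5 and 16 in thp1Δ, and 0 and 5 in sus1Δ. No share of all genes past the adjusted p alone was computed under that setting, so these counts have no background beside them. At the 1.5-fold call, a different threshold, it moved the split of all genes from 381 up and 140 down to 272 and 245 in sac3Δ. The split moved from 631 and 261 to 477 and 444 in thp1Δ, and from 149 and 60 to 100 and 90 in sus1Δ. By the arrays themselves, all 3 mutant arrays lay above all wild-type arrays for 9 pore genes in sac3Δ (26.9% of all genes), 11 in thp1Δ (44.6%) and 11 in sus1Δ (39%). They lay below them for 6 (18.3%), 14 (32.9%) and 8 (26.8%). When each array was left out in turn, 9 of 14 genes past the adjusted p stayed past it throughout in sac3Δ, 12 of 21 in thp1Δ and 3 of 7 in sus1Δ. Of these, 6, 12 and 3 also stayed past it under all 3 other scalings. In a fit on only the arrays compared, 2 of the 14 genes stayed past it in sac3Δ (ASM4 and POM152), 21 of 21 in thp1Δ and 7 of 7 in sus1Δ, and with the methods' t-test after Benjamini-Hochberg adjustment 1 (POM152), 18 and 6 did. No matching share of all genes was computed for these checks. Over all genes the median SD between arrays was 0.155 in BY4741 and 0.114 in sac3Δ. It was 0.0534 in BY4742, 0.0858 in thp1Δ and 0.0524 in sus1Δ. Pore genes lost without 1 array or under another scaling are given with their values below.

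**Figure D2:**
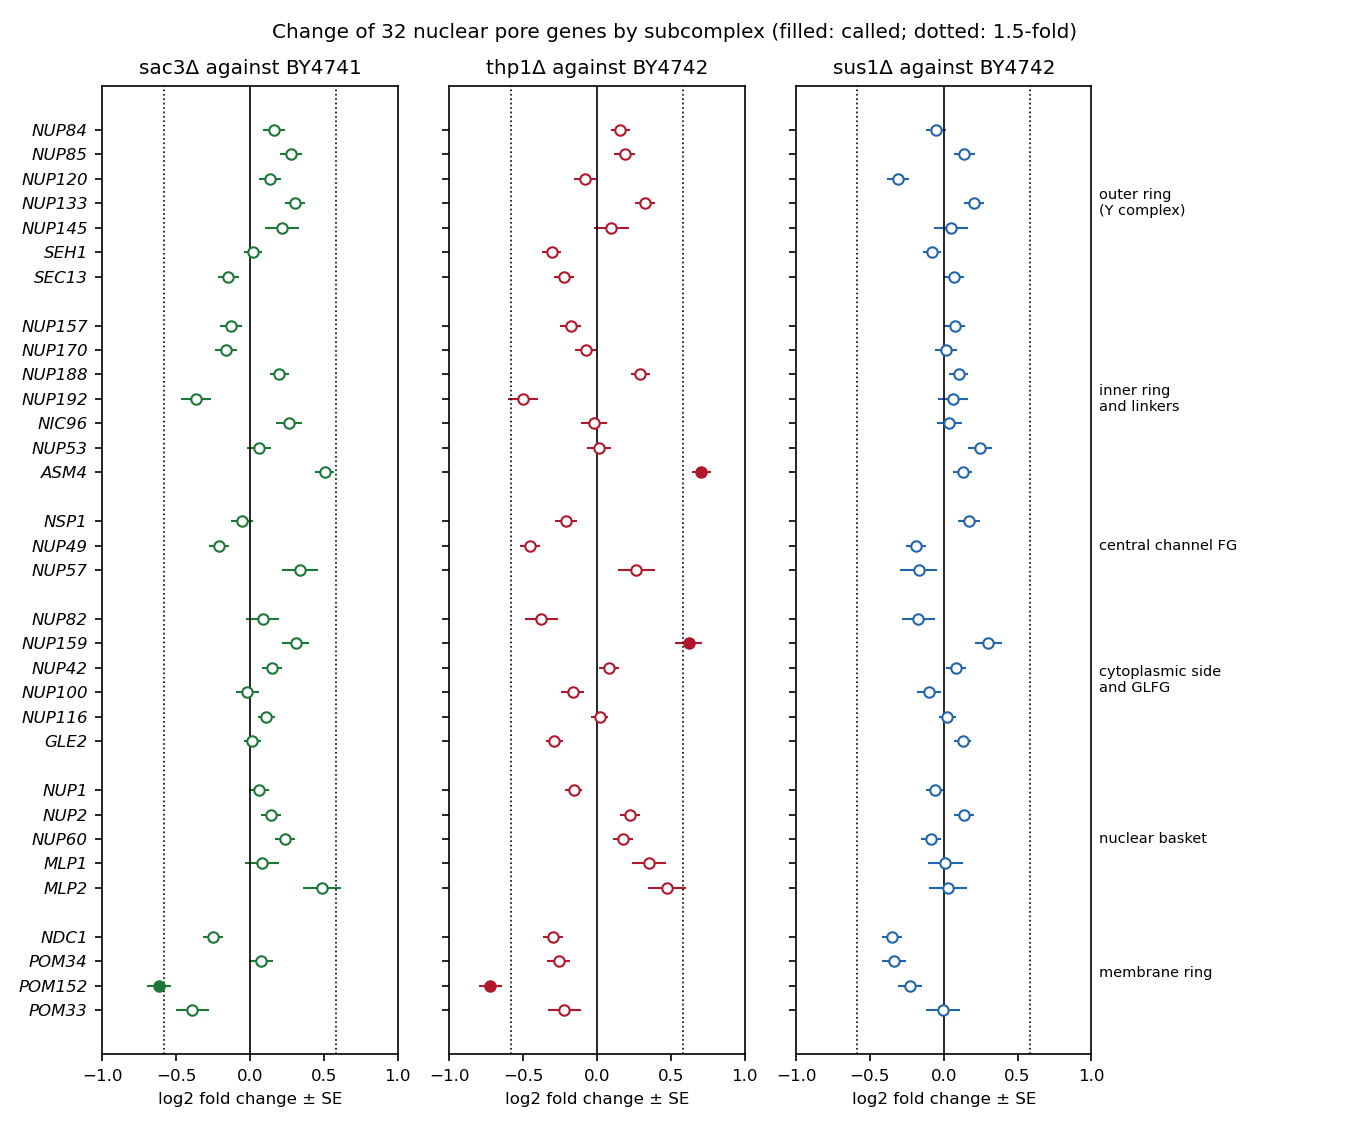
Log2 fold change of every pore gene against its wild type (horizontal axis, points with standard error bars), by subcomplex, in the 3 mutants. Membrane ring genes lie mostly to the left of 0, with POM152 at -0.72 in thp1Δ, and ASM4 lies farthest to the right at 0.71.

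The membrane ring had the lowest median log2 fold change of the 6 subcomplexes in every mutant. Of its 4 genes, 3 passed the adjusted p with lower values in each mutant, and none with higher values, under the deposited scaling and under each of 3 other scalings, which gave 3 or 4 lower. Under the deposited scaling, 16.8% of all genes passed it with lower values in sac3Δ, 25.3% in thp1Δ and 11.3% in sus1Δ. In the fit on only the arrays compared, NDC1 and POM33 missed it in sac3Δ. The median log2 fold change of the group was -0.32 in sac3Δ, -0.28 in thp1Δ and -0.28 in sus1Δ. In BY4742 against BY4741 it was -0.09, also the lowest of the 6, with all 4 genes lower and 0 past the adjusted p. Among the BY4742 arrays, shared by thp1Δ and sus1Δ, the mean over the ring was 0.10 in replicate 1 and -0.05 in replicates 2 and 3. All arrays of both mutants lay below these. POM152, the transmembrane glycoprotein that forms the ring on the lumenal side, had the largest fall of the family in sac3Δ and thp1Δ. POM152 read 2912, 2759 and 2842 units in BY4741 and 1929, 1911 and 1718 in sac3Δ. It read 2972, 2594 and 2744 in BY4742, 1635, 1866 and 1550.2 in thp1Δ and 2504, 2356 and 2224 in sus1Δ. All arrays of each mutant lay below those of their wild type, and those of thp1Δ were all below those of sus1Δ. The fall was 1.53-fold in sac3Δ (log2 -0.62 ± 0.08, adjusted p = 6.25e-05) and 1.65-fold in thp1Δ (log2 -0.72 ± 0.08, adjusted p = 7.01e-06). In sus1Δ the log2 difference was -0.23 ± 0.08, adjusted p = 0.0458, short of the fold minimum, and it was not past the adjusted p without BY4742 replicate 1 or 3 or sus1Δ replicate 2 or 3 (0.0969 to 0.178). Without sac3Δ replicate 3 the value in sac3Δ was -0.56 (adjusted p = 0.000202), also short of it.

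NDC1, a membrane nucleoporin shared with the spindle pole body, was lower by the adjusted p in all mutants, at -0.25 ± 0.07, adjusted p = 0.00804 in sac3Δ, -0.30 ± 0.07, adjusted p = 0.00191 in thp1Δ and -0.35 ± 0.07, adjusted p = 0.00177 in sus1Δ. In the fit on only the arrays compared, the sac3Δ value of NDC1 missed it (adjusted p = 0.0882). POM34, the partner of POM152 in the membrane, was at -0.26 ± 0.08, adjusted p = 0.0133 in thp1Δ and -0.34 ± 0.08, adjusted p = 0.00755 in sus1Δ, and 0.08 ± 0.08, adjusted p = 0.467 in sac3Δ. POM33, which acts in the distribution of pores, showed another pattern, at -0.39 ± 0.11, adjusted p = 0.0134 in sac3Δ, -0.22 ± 0.11, adjusted p = 0.108 in thp1Δ and -0.01 ± 0.11, adjusted p = 0.978 in sus1Δ. The POM34 value in thp1Δ had an adjusted p of 0.0632 without BY4742 replicate 1. The POM33 value in sac3Δ rests on BY4741 arrays that spread from 3985 to 5914 units, and it was -0.23 (adjusted p = 0.0328) without BY4741 replicate 2. Its adjusted p was 0.129 in the fit on only the arrays compared.

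**Figure D3:**
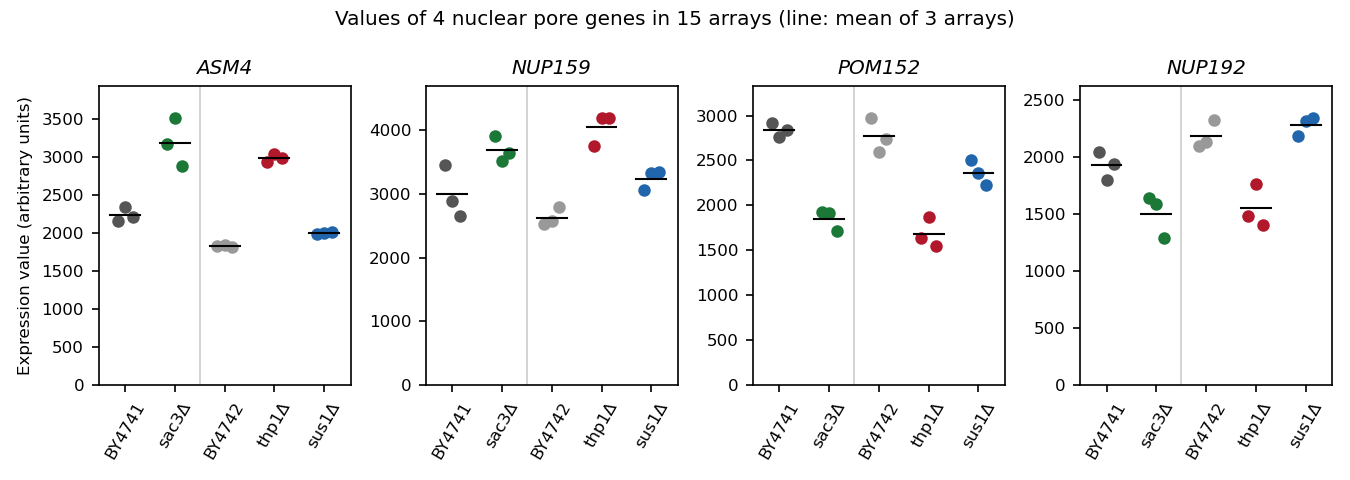
Deposited expression value (vertical axis, arbitrary units) of selected pore genes in each of the 15 arrays, by strain, with the strain means as lines. POM152 is below its wild type in every mutant array, and ASM4 is above it in every sac3Δ and thp1Δ array.

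Within the inner ring and its linkers, opposite changes stood side by side. ASM4 (also NUP59), a linker nucleoporin that ties the inner ring to the membrane, read 2161, 2344 and 2213 units in BY4741 and 3169, 3516 and 2881 in sac3Δ. It read 1830.2, 1840.5 and 1820.5 in BY4742, 2936, 3039.7 and 2987 in thp1Δ and 1988, 2002 and 2013 in sus1Δ. The 6 arrays of sac3Δ and thp1Δ were well above those of their wild type, and those of sus1Δ were above by far less. The rise in thp1Δ was 1.63-fold (log2 0.71 ± 0.06, adjusted p = 1.36e-06). In sac3Δ the log2 difference of 0.51 ± 0.06, adjusted p = 5.68e-05 was short of the fold minimum, and in sus1Δ it was 0.13 ± 0.06, adjusted p = 0.162 (95% interval -0.01 to 0.27). These standard errors pool the spread of all strains. Over all genes, arrays of BY4742 and sus1Δ spread less (median SD 0.0534 and 0.0524) than those of BY4741 (0.155). Over 13 alternative settings of limma or the methods' t-test, the sus1Δ p-value, adjusted or not, ran from 5.01e-05 to 0.592. The wild types also differed at ASM4, with BY4742 lower by the adjusted p (log2 -0.29 ± 0.06, adjusted p = 0.0279). With array medians set equal the value in thp1Δ was 0.58 and no longer reached the fold minimum.

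NUP192, a large scaffold of the inner ring, went the other way in the same 2 mutants. It read 2048, 1800.5 and 1943 units in BY4741 and 1639, 1586 and 1288 in sac3Δ. It read 2097, 2134 and 2322 in BY4742, 1488, 1762 and 1404 in thp1Δ and 2187, 2319.5 and 2343 in sus1Δ. The arrays of sac3Δ and thp1Δ were all below their wild type, while those of sus1Δ overlapped with it. The log2 differences were -0.37 ± 0.10, adjusted p = 0.01 in sac3Δ, -0.50 ± 0.10, adjusted p = 0.000847 in thp1Δ and 0.06 ± 0.10, adjusted p = 0.684 in sus1Δ. With array weights the sac3Δ value was -0.25 (adjusted p = 0.11), and in the fit on only the arrays compared its adjusted p was 0.0756. In thp1Δ the fold minimum was reached without replicate 2 (-0.59), with array medians set equal (-0.62) and after quantile normalisation (-0.61).

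The other inner ring genes differed less. NUP188, a scaffold related to NUP192 in structure, was at 0.20 ± 0.06, adjusted p = 0.0217 in sac3Δ and 0.29 ± 0.06, adjusted p = 0.00136 in thp1Δ. The sac3Δ value of NUP188 was 0.08 to 0.11 under the 3 other scalings, with an adjusted p of 0.207 to 0.382, and it also missed the adjusted p without BY4741 replicate 2 or sac3Δ replicate 1 or 2 (0.0528 to 0.105). The thp1Δ value was 0.17 (adjusted p = 0.0441) with array medians set equal. NIC96, which joins the scaffold to the channel nucleoporins, was at 0.26 ± 0.09, adjusted p = 0.0254 in sac3Δ and -0.02 ± 0.09, adjusted p = 0.853 in thp1Δ. The sac3Δ value of NIC96 was past the adjusted p under none of the other scalings (0.0728 to 0.144), nor without BY4741 replicate 3 or sac3Δ replicate 1 or 2 (0.0775 to 0.104). The paralogues NUP157 and NUP170, both core scaffolds of the inner ring, showed small differences. NUP157 read 2643, 2396 and 2689 in BY4741, 2523, 2185 and 2366 in sac3Δ, 2682, 2698 and 2746 in BY4742, 2198, 2538 and 2466 in thp1Δ and 2747, 2962 and 2841 in sus1Δ. NUP170 read 2276, 2099 and 1900.0 in BY4741, 1957, 1860.2 and 1783 in sac3Δ, 1910.0, 1861 and 1994 in BY4742, 1701, 1909.8 and 1859 in thp1Δ and 1905, 2064 and 1869 in sus1Δ. For NUP157 the thp1Δ arrays were below and the sus1Δ arrays above all BY4742 arrays, and for NUP170 the mutant and wild-type arrays overlapped in every comparison. The NUP157 difference in thp1Δ was -0.18 ± 0.07, adjusted p = 0.047, and no NUP170 difference passed the adjusted p, the largest being -0.16 ± 0.07 in sac3Δ. Leaving out any of the 6 arrays but thp1Δ replicate 2 took the NUP157 difference past 0.05 (adjusted p = 0.0573 to 0.197), and it was -0.11 without thp1Δ replicate 1. NUP53, the paralogue of ASM4, read 1519, 1300.4 and 1489 in BY4741, 1551, 1473 and 1471 in sac3Δ, 1436, 1504 and 1451 in BY4742, 1596, 1561 and 1286 in thp1Δ and 1710.5, 1732 and 1770.0 in sus1Δ. Only the sus1Δ arrays of NUP53 stood clear of their wild type (0.25 ± 0.08, adjusted p = 0.036), and that adjusted p was lost without any 1 of the 6 arrays (0.0609 to 0.109) and under each other scaling (0.133 to 0.174).

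Of the 3 channel FG nucleoporins, which form a trimer, NUP49 and NSP1 had lower and NUP57 had higher values where they passed the adjusted p. NUP49 was at -0.21 ± 0.07, adjusted p = 0.0216 in sac3Δ, -0.46 ± 0.07, adjusted p = 7.67e-05 in thp1Δ and -0.19 ± 0.07, adjusted p = 0.0516 in sus1Δ. In sac3Δ it was -0.14 without BY4741 replicate 3 (adjusted p = 0.0761), -0.15 without sac3Δ replicate 2 (0.0939) and -0.12 with array weights (0.171). NUP57 was at 0.34 ± 0.12, adjusted p = 0.0401 in sac3Δ and 0.27 ± 0.12, adjusted p = 0.0781 in thp1Δ, with overlapping arrays in sac3Δ, where they ran from 2017 to 2825 units. The sac3Δ value of NUP57 missed the adjusted p under each other scaling (0.078 to 0.123) and without BY4741 replicate 2 or 3 or sac3Δ replicate 1 or 2 (0.0586 to 0.175), and it was 0.21 without BY4741 replicate 3. NSP1 was at -0.21 ± 0.07, adjusted p = 0.0265 in thp1Δ and 0.17 ± 0.07, adjusted p = 0.101 in sus1Δ, with all arrays of thp1Δ below and of sus1Δ above BY4742. Without any 1 of the 6 arrays but thp1Δ replicate 1, the NSP1 value in thp1Δ missed the adjusted p (0.053 to 0.0881).

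On the cytoplasmic side, NUP159, an FG nucleoporin that docks the RNA helicase Dbp5 during mRNA export, read 3444, 2883 and 2648 units in BY4741 and 3906, 3511 and 3642 in sac3Δ. It read 2519, 2568 and 2794 in BY4742, 3754, 4185 and 4188 in thp1Δ and 3055, 3326 and 3334 in sus1Δ. All arrays of each mutant were above those of their wild type, by the widest margin in thp1Δ. The rise in thp1Δ was 1.54-fold (log2 0.62 ± 0.09, adjusted p = 6.73e-05). The log2 difference was 0.31 ± 0.09, adjusted p = 0.0139 in sac3Δ and 0.30 ± 0.09, adjusted p = 0.024 in sus1Δ, and in sac3Δ it was 0.22 (adjusted p = 0.0544) without BY4741 replicate 3. It also missed the adjusted p without sac3Δ replicate 1 (0.0597), and under the scalings to equal medians, over all genes (0.101) or outside chromosome XVI (0.0586). In sus1Δ it did so without BY4742 replicate 1 or 2 or sus1Δ replicate 2 or 3 (0.0699 to 0.0849) and under the same scalings (0.076 and 0.0823). In thp1Δ the fold minimum was missed under all 3 other scalings, at 0.50 to 0.56. NUP82, which anchors NUP159 at the pore, was lower in thp1Δ (-0.38 ± 0.11, adjusted p = 0.0104).

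The GLFG nucleoporins NUP100 and NUP116 are paralogues that contribute to the permeability barrier of the channel. NUP100 read 1843, 1571 and 1806 in BY4741, 1708, 1635 and 1804 in sac3Δ, 1604, 1771 and 1756 in BY4742, 1545, 1559 and 1474 in thp1Δ and 1460.3, 1744 and 1591 in sus1Δ. NUP116 read 2167, 2227 and 2253 in BY4741, 2562, 2304 and 2314 in sac3Δ, 2323, 2327 and 2339 in BY4742, 2337, 2523 and 2236 in thp1Δ and 2370.1, 2385 and 2344 in sus1Δ. Neither passed the adjusted p in any mutant, although the thp1Δ arrays of NUP100 were all below BY4742 and those of NUP116 were all above wild type in sac3Δ and sus1Δ. GLE2, an mRNA export factor that binds Nup116, was at -0.29 ± 0.06, adjusted p = 0.00079 in thp1Δ, 0.01 ± 0.06, adjusted p = 0.854 in sac3Δ and 0.13 ± 0.06, adjusted p = 0.114 in sus1Δ. NUP42 read between 546.0 and 700.7 units in all arrays, and its log2 difference in sac3Δ was 0.15 ± 0.07, adjusted p = 0.0871.

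In the outer ring, the Y-shaped scaffold complex, shifts were small and of both signs. NUP133, at the stalk of the Y, passed the adjusted p in all mutants, at 0.30 ± 0.07, adjusted p = 0.00291 in sac3Δ, 0.32 ± 0.07, adjusted p = 0.00108 in thp1Δ and 0.20 ± 0.07, adjusted p = 0.039 in sus1Δ. In sus1Δ it missed the adjusted p under every other scaling (0.201 to 0.273) and without any 1 of the 6 arrays but sus1Δ replicate 1 (0.0577 to 0.15). With array medians set equal it was 0.18 (adjusted p = 0.0723) in sac3Δ and 0.20 (0.0366) in thp1Δ. The sac3Δ adjusted p of NUP133 was 0.0599 in the fit on only the arrays compared. NUP85, in an arm of the Y, was at 0.28 ± 0.07, adjusted p = 0.00746 in sac3Δ and 0.19 ± 0.07, adjusted p = 0.0389 in thp1Δ. With array medians set equal it was 0.16 (adjusted p = 0.0958, and 0.0512 after quantile normalisation) in sac3Δ and 0.07 (0.453) in thp1Δ, and in thp1Δ it also missed the adjusted p under the other scalings and without any 1 of the 6 arrays but thp1Δ replicate 3 (0.0657 to 0.111). NUP120, in the other arm, was at -0.31 ± 0.07, adjusted p = 0.00786 in sus1Δ, 0.14 ± 0.07, adjusted p = 0.156 in sac3Δ and -0.08 ± 0.07, adjusted p = 0.383 in thp1Δ. The β-propeller subunits, which also work outside the pore, were lower in thp1Δ: SEC13, also a coat protein of vesicles leaving the endoplasmic reticulum, at -0.22 ± 0.07, adjusted p = 0.0126, and SEH1, also in a complex at the vacuole, at -0.31 ± 0.06, adjusted p = 0.000903. Without thp1Δ replicate 3 SEC13 was at -0.16 (adjusted p = 0.062). BY4742 itself was higher than BY4741 at SEH1 (0.25 ± 0.06, adjusted p = 0.043). NUP84 and NUP145 passed the adjusted p in no mutant, and NUP84 had an empty value in BY4741 replicate 3.

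The nuclear basket faces the nucleoplasm, where TREX-2 docks. NUP1, the anchor of Sac3, read 2047 and 2003 units in BY4741 replicates 1 and 2 (replicate 3 was empty) and 2176, 2129 and 2030.1 in sac3Δ. It read 1989.5, 2129 and 2021 in BY4742, 1747, 1961 and 1799 in thp1Δ and 1959, 2041 and 1895 in sus1Δ. The arrays of sac3Δ and sus1Δ overlapped with their wild type, and those of thp1Δ were below it. The log2 difference was -0.16 ± 0.06, adjusted p = 0.0358 in thp1Δ, 0.06 ± 0.07, adjusted p = 0.481 in sac3Δ (95% interval -0.08 to 0.21) and -0.06 ± 0.06, adjusted p = 0.511 in sus1Δ (95% interval -0.19 to 0.07). In thp1Δ the adjusted p was 0.0645 to 0.127 without BY4742 replicate 2 or 3 or thp1Δ replicate 1 or 3, and the value was -0.28 with array medians set equal. NUP60, which tethers the basket filaments, was at 0.24 ± 0.07, adjusted p = 0.0117 in sac3Δ and 0.18 ± 0.07, adjusted p = 0.0355 in thp1Δ, and NUP2, a mobile nucleoporin of the basket, at 0.22 ± 0.07, adjusted p = 0.0126 in thp1Δ. Neither was past the adjusted p under any other scaling, with NUP60 at 0.11 to 0.16 in sac3Δ (0.0869 to 0.203) and 0.05 to 0.12 in thp1Δ (0.172 to 0.527), and NUP2 at 0.10 to 0.16 (0.108 to 0.302). In thp1Δ, NUP60 also missed it without any 1 of the 6 arrays but BY4742 replicate 3 (0.0537 to 0.116), and NUP2 without BY4742 replicate 1 (0.0515) or thp1Δ replicate 3 (0.0531).

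MLP1 and MLP2 encode long coiled-coil filaments of the basket, and Mlp1 helps to retain unspliced mRNA in the nucleus. MLP2 read 1622, 1586 and 1367 units in BY4741, 2263, 2497 and 1704 in sac3Δ, 1710.1, 1617 and 1732 in BY4742, 2011, 2567 and 2501 in thp1Δ and 1776, 1754 and 1636 in sus1Δ. MLP1 read 1413, 1319.9 and 1418 in BY4741, 1592, 1682 and 1163 in sac3Δ, 1241, 1294 and 1354 in BY4742, 1489, 1823 and 1674 in thp1Δ and 1296, 1349.8 and 1274 in sus1Δ. MLP2 was above wild type in all arrays of sac3Δ and thp1Δ, MLP1 in those of thp1Δ, and replicate 3 was the lowest sac3Δ array for both. The MLP2 differences were 0.48 ± 0.13, adjusted p = 0.00809 in sac3Δ and 0.48 ± 0.13, adjusted p = 0.00603 in thp1Δ, short of the fold minimum, which MLP2 passed without sac3Δ replicate 3 (0.64) or without thp1Δ replicate 1 (0.59). The sac3Δ adjusted p of MLP2 was 0.0767 in the fit on only the arrays compared. MLP1 was at 0.35 ± 0.12, adjusted p = 0.0171 in thp1Δ and 0.08 ± 0.12, adjusted p = 0.597 in sac3Δ. In thp1Δ it missed the adjusted p without BY4742 replicate 1 (0.0563) or thp1Δ replicate 2 (0.0749), with array medians set equal (0.0884) and after quantile normalisation (0.102).

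**Figure D4:**
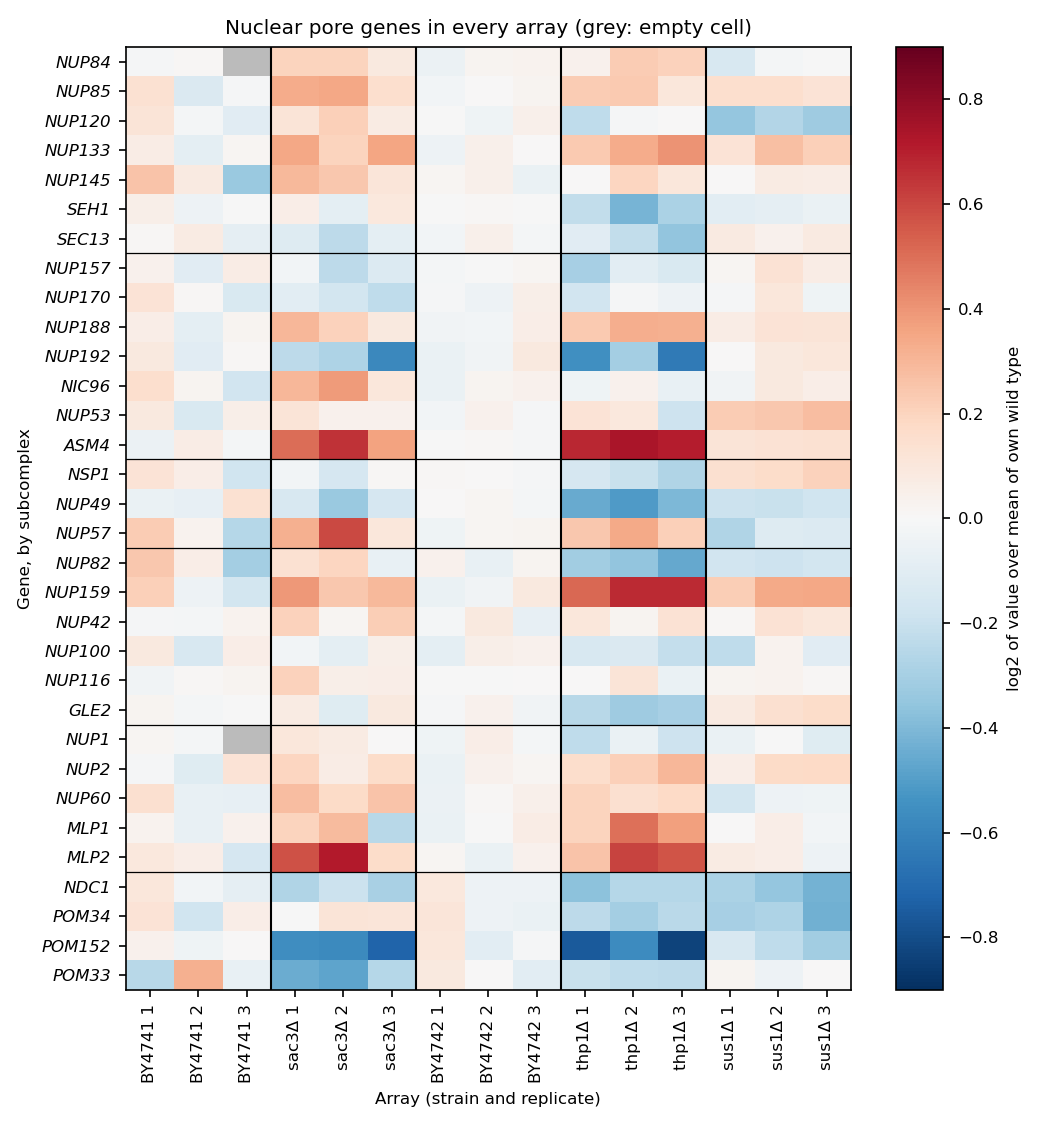
Colour map of each pore gene (rows, by subcomplex) in each array (columns, by strain), as the log2 difference from the mean of its wild type. POM152 (low) and ASM4 (high) stand out in sac3Δ and thp1Δ.

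Ratios of paralogues within an array do not depend on a scaling factor between arrays. The log2 ratio of ASM4 to NUP53 was higher by 0.44 in sac3Δ and by 0.70 in thp1Δ, with no overlap with wild type, and it differed by -0.12 in sus1Δ, below all BY4742 arrays. Its means were near in the mutants, at 1.09 in sac3Δ and 1.02 in thp1Δ. The wild-type means were farther apart, at 0.64 in BY4741 and 0.32 in BY4742. The ratio of MLP2 to MLP1 was higher by 0.41 in sac3Δ, without overlap, and by 0.12 in thp1Δ, with overlap. Here too the mutant means were near (0.54 in sac3Δ and 0.50 in thp1Δ) and the wild types farther apart (0.14 in BY4741 and 0.38 in BY4742). The ratios of NUP116 to NUP100 and of NUP170 to NUP157 were higher in thp1Δ by 0.18 and 0.10, without overlap. No ratios of other gene pairs were computed, so no background share stands beside the next count. Of single genes, 26.9% lay above and 18.3% below wild type without overlap in sac3Δ, 44.6% and 32.9% in thp1Δ, and 39% and 26.8% in sus1Δ. Of 12 ratios compared, 6 did not overlap. Each of these 6 had p = 0.1 in an exact two-sided permutation test, the smallest that 3 against 3 arrays allow, and 0.2 after Benjamini-Hochberg adjustment, so none could reach 0.05.

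**Figure D5:**
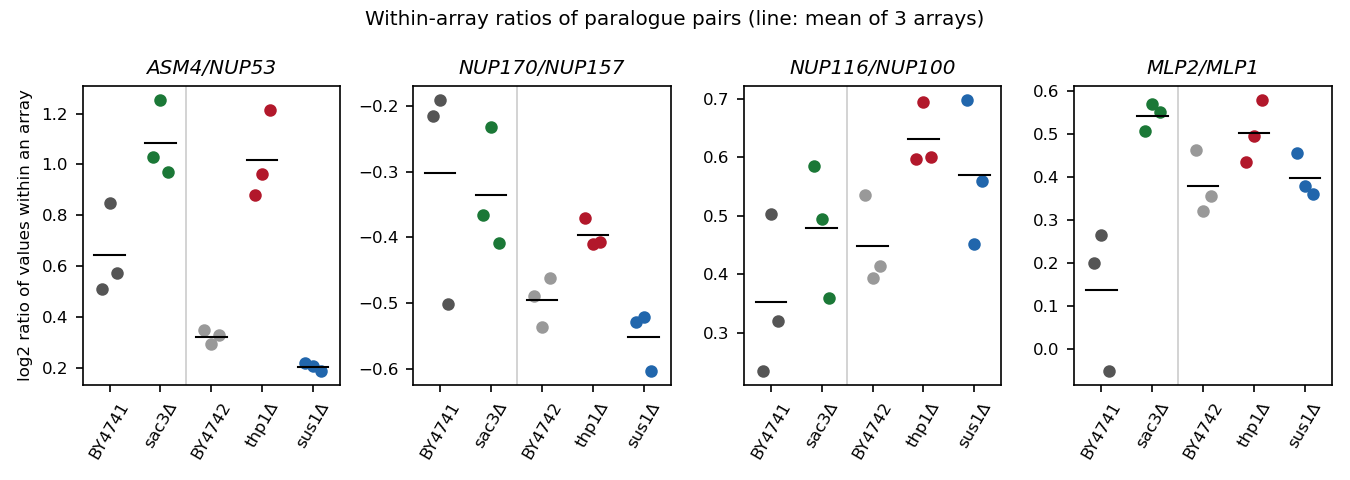
Log2 ratio of the values of 2 paralogues within each array (vertical axis), for 4 pairs, by strain, with the mean of 3 arrays as a line. For ASM4 and NUP53 the ratio stands higher than wild type in all arrays of sac3Δ and thp1Δ.

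The changes in sac3Δ and thp1Δ, which were set against separate wild types, are given side by side. Of the pore genes, 7 passed the adjusted p with higher values in both (ASM4, MLP2, NUP133, NUP159, NUP188, NUP60 and NUP85) and 4 with lower values (NDC1, NUP192, NUP49 and POM152). Those were 7 of 9 and 7 of 9 of the higher genes, and 4 of 5 and 4 of 12 of the lower genes, in sac3Δ and thp1Δ. Over all 4183 genes tested in both, 22.0% passed with higher and 11.7% with lower values in both, against 22.6% and 12.9% of the pore genes. These 4183 genes include chromosome XVI, whose genes were high in both mutants and where no pore gene lay. No share, correlation or count of signs without it was computed. The counts of pore genes depended on scaling, with 2 higher (ASM4 and MLP2) and 9 lower when array medians were set equal, 3 and 6 when they were set equal outside chromosome XVI, and 4 and 7 after quantile normalisation. In the fit on only the arrays compared, ASM4 and POM152 alone of the 7 and 4 genes named stayed past the adjusted p in sac3Δ. Across 31 genes Pearson's r of the log2 fold changes was 0.845 and Spearman's rho 0.838, against 0.745 and 0.705 over 4183 genes. The same sign in both was seen for 24 of 31 (77.4%), against 76% of all genes, chromosome XVI included. Genes are not independent replicates, and the arrays of sac3Δ and thp1Δ also shared the high SRB4 ratios, whose part was not tested. In the difference between their responses, 2 of 31 pore genes passed the adjusted p (21.3% of all genes), SEH1 and GLE2, both lower in thp1Δ, and 0 with the 1.5-fold minimum (6.41%). For SEH1 the mutant means were near, at 1440 units in thp1Δ and 1520 in sac3Δ. Its wild-type means were farther apart, at 1779 in BY4742 and 1496 in BY4741, and enter this difference.

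The responses of thp1Δ and sus1Δ, which share the BY4742 arrays, were compared directly. By the adjusted p, 18 of 31 pore genes differed (54.1% of all genes), and 0 reached 1.5-fold (17.2%). ASM4 stood apart most on the higher side of thp1Δ (0.58 ± 0.06, adjusted p = 9.92e-06) and NUP192 on the lower side (-0.56 ± 0.10, adjusted p = 0.000436). POM152 was lower in thp1Δ than in sus1Δ (-0.49 ± 0.08, adjusted p = 0.000211), as was GLE2 (-0.42 ± 0.06, adjusted p = 5.61e-05). Between the responses of sus1Δ and sac3Δ, 7 of 31 differed by the adjusted p (31.6%) and 0 at 1.5-fold (13.7%). Among these were NUP120 (-0.44 ± 0.11, adjusted p = 0.00715) and POM34 (-0.41 ± 0.11, adjusted p = 0.0153), both lower in the sus1Δ response. Between the wild types themselves, 1 pore gene was higher in BY4742 (SEH1, 2.24% of all genes) and 1 lower (ASM4, 1.82%) by the adjusted p, and 0 were called at 1.5-fold in either direction (1.1%).

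Genes that work with the pore included several with larger changes than any member. Of 15 karyopherins, the transport receptors, 0 rose and 1 fell in sac3Δ, 1 rose and 2 fell in thp1Δ, and 0 changed in sus1Δ. The shares of all genes called higher and lower, against which these and the next counts stand, were 8.84% and 3.25% in sac3Δ, 14.9% and 6.17% in thp1Δ, and 3.46% and 1.39% in sus1Δ, and none of the list counts was tested. KAP122, an import receptor, fell in sac3Δ (-0.75 ± 0.09, adjusted p = 4.45e-05) and in thp1Δ (-0.74 ± 0.08, adjusted p = 8.26e-06), and KAP120 on chromosome XVI rose in thp1Δ (1.18 ± 0.07, adjusted p = 2.99e-08). Of 11 basket-attached and mRNA exit factors, 3 rose in sac3Δ, 3 rose in thp1Δ and 0 changed in sus1Δ. The largest rises were ULP1, a SUMO protease held at the basket and encoded on chromosome XVI (1.14 in sac3Δ and 1.64 in thp1Δ), and MAD1, a spindle checkpoint protein that binds the basket and is encoded on chromosome VII (1.07 and 1.25). Of 8 Ran cycle genes, GSP2, a yeast Ran GTPase, rose in thp1Δ (0.92 ± 0.17, adjusted p = 0.000421) and sus1Δ (1.04 ± 0.17, adjusted p = 0.000613), and MOG1, which binds Ran, fell in sac3Δ (-0.68 ± 0.10, adjusted p = 0.000145). Of 12 genes of pore assembly and the nuclear envelope tested, 0 changed in sac3Δ, 2 rose in thp1Δ (SRC1, and YOP1 on chromosome XVI) and 1 fell in sus1Δ (APQ12, -0.62 ± 0.06, adjusted p = 1.84e-05). Of 4 TREX-2 subunits tested in each mutant, CDC31 rose in sac3Δ (0.61 ± 0.09, adjusted p = 0.000151) and in thp1Δ (0.84 ± 0.09, adjusted p = 5.08e-06). Of 9 genes of the other complexes that hold Sec13 or Seh1, 1 rose, in thp1Δ (SEC23, on chromosome XVI, 0.87 ± 0.07).

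The genes next to pore genes on the chromosome were examined as a last description. Of 47 tested neighbours, 1 rose (YKL068W-A, beside NUP100) and 1 fell (HRD3, beside SEC13) in sac3Δ, named after their values were seen, and 6 rose and 3 fell in thp1Δ, while of 48 tested in sus1Δ 0 changed. The shares of all genes called higher and lower were 8.84% and 3.25% in sac3Δ, 14.9% and 6.17% in thp1Δ, and 3.46% and 1.39% in sus1Δ. No neighbour lay on chromosome XVI. Over the other chromosomes the shares were 6.20% and 3.48% in sac3Δ, 10.02% and 6.65% in thp1Δ, and 3.62% and 1.33% in sus1Δ. The neighbour counts were not tested against them. None of those called lay beside POM152, ASM4 or NUP159 in a mutant in which that gene was called.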

How the data were processed

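Expression values were made by the authors with dChip, which normalised the arrays to an invariant set and fitted a model to the perfect-match probes. The deposited values are intensity in arbitrary units, linear, 1 per probe set. No source used here gives the dChip version. Outlier values had been left empty by the authors and stayed missing. From 5900 probe sets, 5449 genes were kept, each with its brightest set, and there were 0 columns of other samples.

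Log2 of the deposited values was analysed with no further scaling. A gene was dropped from a comparison when at least 50% of its 6 arrays were under 600 units. All 15 arrays entered 1 limma fit of 5 groups (limma 3.58.1, R 4.3.3, lmFit, eBayes with a prior of 2.88 degrees of freedom). Its standard errors and p-values use 1 spread per gene for all strains, although the spread between arrays differed by strain. Benjamini-Hochberg adjustment was over all genes tested. Differences between responses were contrasts of this fit, called with the same adjusted p and fold minimum. Log2 differences are given ± standard error, with n = 3 arrays per strain, a number that limits the precision. The scripts were tested on simulated data.

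Values in every array are given for members called in a mutant, for 4 pairs of paralogues and for NUP1, and those of NUP192 were added after they were seen. From each other list, at most the 2 called genes with the largest change per direction and comparison are named. The members and lists were chosen with earlier results of these data known. Gene names and neighbours came from RefSeq's R64 annotation. Scaling, filters, array weights, a variance trend, the methods' t-test, averaging of probe sets, a replicate block and omission of each array were tried as alternatives.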

Additional observations from a re-analysis of the deposited data

Results flagged for a closer look

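Differences between the responses of 2 mutants passed limma's adjusted p for 27 pairs of gene and comparison, none of them at 1.5-fold. Values are log2 differences of the responses, the first mutant minus the second. Between thp1Δ and sac3Δ they were -0.33 for SEH1 and -0.30 for GLE2.

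Between thp1Δ and sus1Δ, higher in thp1Δ, they were 0.58 for ASM4, 0.45 for MLP2, 0.44 for NUP57, 0.34 for MLP1, 0.32 for NUP159, 0.26 for NUP60, 0.23 for NUP120, 0.21 for NUP84 and 0.19 for NUP188. Lower in thp1Δ, they were -0.56 for NUP192, -0.49 for POM152, -0.42 for GLE2, -0.38 for NSP1, -0.29 for SEC13, -0.27 for NUP49, -0.25 for NUP157, -0.24 for NUP53 and -0.23 for SEH1.

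Between sus1Δ and sac3Δ, higher in the sus1Δ response, they were 0.43 for NUP192 and 0.39 for POM152. Lower in it, they were -0.51 for NUP57, -0.44 for NUP120, -0.41 for POM34, -0.38 for ASM4 and -0.32 for NUP60. ASM4 and SEH1 also differed between the wild types, and the wild-type arrays enter the comparisons with sac3Δ.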

How the results depend on the processing

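For the 4 calls made (POM152 in sac3Δ and thp1Δ, ASM4 and NUP159 in thp1Δ), 70 of 76 refits under an alternative kept the call and 6 lost it. Of the other 39 log2 differences given, 43 refits called one, 5 of them with the fold minimum kept, and 0 of the differences that had been called changed sign. With 3 arrays per strain the number of arrays limits what can be called, and dim genes such as NUP42 could not be tested in all mutants.

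With the adjusted p alone, 9 members were called up and 5 down in sac3Δ, 9 and 12 in thp1Δ, 3 and 4 in sus1Δ, and 1 and 1 in BY4742 against BY4741, and the differences between responses gave 2 (thp1Δ and sac3Δ), 18 (thp1Δ and sus1Δ) and 7 (sus1Δ and sac3Δ). With array weights 0 members fell in sac3Δ, POM152 being at -0.56.

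With array medians set equal, over all genes or outside chromosome XVI, and after quantile normalisation, in that order, 0, 1 and 1 members were called up in thp1Δ, and 1, 1 and 1 differed between thp1Δ and sus1Δ. With medians set equal and after quantile normalisation 2 and 2 were called down in thp1Δ. The member median under these 3 scalings was -0.0335, 0.00398 and -0.0012 in sac3Δ, -0.20, -0.14 and -0.17 in thp1Δ, -0.0543, -0.0585 and -0.0200 in sus1Δ, and -0.0186, -0.0163 and -0.0206 in BY4742 against BY4741.

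Leaving out 1 array gave 0 to 1 members up and 0 to 1 down in sac3Δ, with medians of 0.0606 to 0.121. The counts changed without sac3Δ replicate 3, when MLP2 was called and POM152 was not. In thp1Δ it gave 2 to 3 up and 1 to 2 down, with medians of -0.0976 to -0.0259. MLP2 was added without thp1Δ replicate 1 and NUP192 without thp1Δ replicate 2. In sus1Δ it gave 0 and 0, with medians of 0.0107 to 0.0441, and between the wild types 0 and 0, with medians of -0.0119 to 0.0440. For differences it gave 0 to 0 (thp1Δ and sac3Δ), 0 to 1 (thp1Δ and sus1Δ; without sus1Δ replicate 1, thp1Δ replicate 1 or thp1Δ replicate 2) and 0 to 2 (sus1Δ and sac3Δ; 1 without BY4741 replicate 1 and 2 without sac3Δ replicate 3).

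Same-numbered arrays did not deviate together in all comparisons (r from -0.158 to 0.302), so the numbers were not taken to pair the arrays. With the replicate block 0 members were called up and 1 down in sac3Δ, 2 and 1 in thp1Δ, and 0 and 0 in sus1Δ, and none of these calls changed, while by the adjusted p alone NUP157 (0.0654) and NUP60 (0.0515) in thp1Δ and NUP133 (0.0525) in sus1Δ were lost. The causes of these changes were not tested.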
